A study of Mus musculus with 2 samples.

Results

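Among adipocyte precursor cells of young mouse pups, 209 cells carried the highest combined mRNA level of 3 chemokines and 1 cytokine, Cxcl1, Il6, Ccl2 and Ccl7. They are called chemokine-high cells here. Of 6905 cell barcodes in the data, 6885 passed a filter of 500 detected genes or more and 10% or less mitochondrially encoded counts. Of these, 1672 were left out because they held at least 1 molecule count (UMI) of the endothelial genes Cdh5 or Cldn5 or of the macrophage genes C1qa or C1qb, which left 5213 filtered cells. The chemokine-high cells were the top 4% of filtered cells by a score, the mean over the 4 genes of ln(1 + UMIs per 10000 UMIs of the cell). The comparison group was the other 5004 filtered cells. The 4 genes chose the cells, so their levels are a description, and no test was made on them.

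The cells came from wild-type pups, cross-fostered to dams whose milk fat had a high or a low n-6/n-3 ratio of polyunsaturated fatty acids, and taken at 12 days of age. Subcutaneous adipose tissue was digested with enzymes and adipocyte precursors were collected by flow sorting, with 3000 cells loaded per condition. The labels call the cells fresh in one place and cryopreserved and thawed, with permeable cells removed, in another. The matrix holds 2 libraries, numbered 1 and 2, and nothing in the labels says which diet each was, so both were compared with no diet attached. All cells of a library share 1 preparation, so neither p-values nor standard errors across cells are given, and values of the genes the results turn on are also shown by library.

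Cxcl1 encodes a ligand of the receptor Cxcr2 that draws neutrophils, and Ccl2 and Ccl7 encode ligands of Ccr2 that draw monocytes. Il6 encodes interleukin 6, a cytokine that signals through gp130 and STAT3. In stromal cells these genes are classical targets of NF-kB, the transcription factor released when interleukin 1, tumour necrosis factor or microbial products engage their receptors, and fibroblast-like cells of fat are known as a source of all 4. Enzymatic digestion of tissue is also known to induce immediate early genes such as Fos, Jun and Egr1, whose transcripts appear within minutes of a stimulus and do not need new protein.

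In the GENCODE annotation of GRCm38 the 4 genes lie in 3 places on the plus strand. Cxcl1 is at chr5:90891241-90893115, with its neighbour Cxcl2 starting 12.6 kb further on, and Il6 is at chr5:30013114-30019981. Ccl2 is at chr11:82035571-82037453 and Ccl7 at chr11:82045712-82047525, with 10.1 kb between their starts. The RefSeq promoter table for GRCm38.p6, which gives 250 bases before and 50 bases after a gene's start, held 2 of the 4 genes, Cxcl1 and Il6, and also Cxcl2, the chemokine next to Cxcl1. Each of these 3 promoters is shown on the plus strand because each holds a match to the 10-base NF-kB (kappaB) consensus. The match is in capitals:
Cxcl1, chr5:90890995-90891294: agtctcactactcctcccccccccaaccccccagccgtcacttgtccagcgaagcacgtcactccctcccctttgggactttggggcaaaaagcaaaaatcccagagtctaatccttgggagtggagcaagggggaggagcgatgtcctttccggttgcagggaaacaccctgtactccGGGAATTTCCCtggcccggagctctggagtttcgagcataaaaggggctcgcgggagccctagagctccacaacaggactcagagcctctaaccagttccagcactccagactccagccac
Il6, chr5:30012864-30013163: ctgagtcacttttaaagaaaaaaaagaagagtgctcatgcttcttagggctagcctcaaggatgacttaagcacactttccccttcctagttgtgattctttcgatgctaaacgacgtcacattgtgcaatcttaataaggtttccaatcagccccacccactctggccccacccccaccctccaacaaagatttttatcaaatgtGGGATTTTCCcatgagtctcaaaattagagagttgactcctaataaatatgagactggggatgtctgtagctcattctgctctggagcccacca
Cxcl2, chr5:90903649-90903948: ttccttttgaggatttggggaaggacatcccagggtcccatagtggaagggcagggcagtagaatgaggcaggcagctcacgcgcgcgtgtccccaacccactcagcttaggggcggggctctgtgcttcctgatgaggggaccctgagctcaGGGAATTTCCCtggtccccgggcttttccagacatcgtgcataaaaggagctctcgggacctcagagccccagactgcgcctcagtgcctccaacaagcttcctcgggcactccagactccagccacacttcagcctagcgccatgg
Counted from the start used by the promoter table, the match begins 71 bases before Cxcl1, 44 bases before Il6 and 97 bases before Cxcl2. For Cxcl1 and Cxcl2 that start is not the GENCODE start used above. In Cxcl1 and Cxcl2 the consensus matches on both strands, shifted by 1 base, which gives the same run of 11 bases in both. Searched on both strands, the kappaB consensus occurred in 5.14% of the 27025 genes of the table. The AP-1 motif TGANTCA, bound by Fos and Jun proteins, occurred in 8.97% of genes, and of the 3 promoters shown only Il6 held it, beginning 249 bases before the start. These are matches of letters, not measured binding.

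The score of the chemokine-high cells ran from 3.52 to 4.34 with a median of 3.70, and the other cells had a median of 2.30. There was no gap at the threshold. The 20 cells just inside it had scores of 3.515 to 3.547, and the 20 just outside had 3.491 to 3.515. The cut was a fixed 4% of the cells, so close scores at it cannot say whether these cells form a separate group. Library 1 held 97 of them among 2359 filtered cells, or 4.11% (exact 95% interval 3.35 to 4.99), and library 2 held 112 among 2854, or 3.92% (3.24 to 4.70). The intervals overlap, and like all intervals here they cover counting error only. The chemokine-high cells had a median of 11039 UMIs and 2620 detected genes, against 12273.5 UMIs and 2908 genes in the other cells.

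Levels are given as CPM, the UMIs of a gene per 1000000 UMIs summed over a group of cells. Cxcl1 reached 8168 CPM in chemokine-high cells, against 3002 CPM in the other cells, a ratio of 2.72. Il6 differed most of the 4, with 1432 CPM in chemokine-high cells and 269 CPM in other cells, a ratio of 5.33. Ccl2 was at 7093 against 1989 CPM, a ratio of 3.57, and Ccl7 at 6831 against 2142 CPM, a ratio of 3.19. Together the 4 transcripts made up 2.35% of all UMIs in chemokine-high cells and 0.740% in other cells. The libraries gave close ratios: 2.83 and 2.62 for Cxcl1, 5.49 and 5.19 for Il6, 3.52 and 3.60 for Ccl2, and 3.39 and 3.03 for Ccl7 in libraries 1 and 2.

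**Figure D1:**
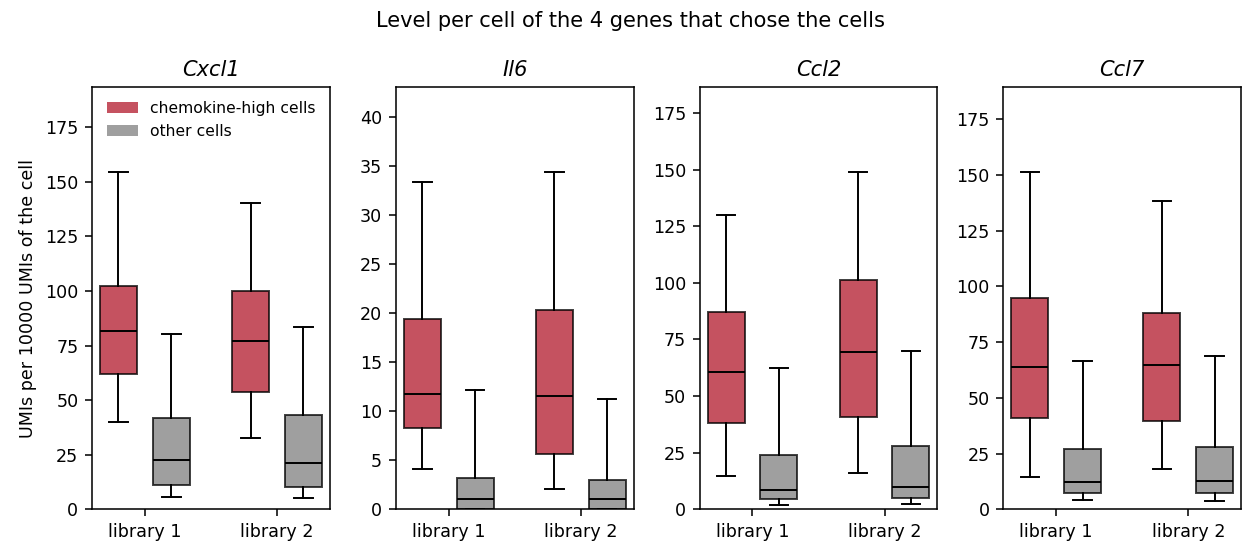
Level per cell of the 4 genes that chose the cells, as UMIs per 10000 UMIs of the cell, in chemokine-high cells (red) and other cells (grey) of each library. Boxes span the 25th to 75th percentile with the median as a line, and whiskers the 5th to 95th percentile. The Il6 median was 11.8 in chemokine-high cells, against 1.04 in other cells, over both libraries.

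Per cell, the median Cxcl1 level was 79.5 UMIs per 10000 in chemokine-high cells and 22.1 in other cells. The ranges overlapped for every one of the 4 genes: the highest Cxcl1 level was 177 per 10000 in a chemokine-high cell, against 230 per 10000 in a cell outside the group. The mean of the 4 log levels favours cells that combine several of the genes. Of the 209, 16 were in the top 10% of filtered cells for all 4 genes, 83 for 3, 87 for 2 and 23 for 1, whereas none of the 5004 other cells was in the top 10% for all 4 and 20 were for 3. Across the 5213 cells, Pearson's r of the log levels was 0.29 for Cxcl1 with Il6, 0.36 for Cxcl1 with Ccl2, 0.36 for Cxcl1 with Ccl7, 0.32 for Ccl2 with Ccl7, 0.22 for Il6 with Ccl7 and 0.16 for Il6 with Ccl2. All cells of a library share its depth and its free RNA.

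Each of the 4 genes was also read in cells that it had not helped to choose. When the top 4% were taken on the other 3 genes alone, Cxcl1 stood at 6487 CPM in the chosen cells and 3065 CPM in the rest, a ratio of 2.12 (2.18 in library 1 and 2.05 in library 2). Il6 gave 731 CPM in the chosen cells, against 295 CPM in the rest, a ratio of 2.48. The ratios were 2.05 for Ccl2 and 2.12 for Ccl7. These are smaller than in the cells chosen on all 4 genes, and all are above 1 in both libraries. Of the 209 cells taken each time, 126 to 169 were chemokine-high cells. The 4 genes correlate and were picked with earlier results of these data known, so ratios above 1 are a description too. In a second reading, the UMIs of each cell were divided at random into 2 parts and the cells were chosen on one part only. The other part then gave ratios of 2.64 for Cxcl1, 4.91 for Il6, 3.34 for Ccl2 and 3.10 for Ccl7, and 177 of the 209 cells were the same. In this reading the same 4 genes chose the cells, so high ratios follow from the choice and are a description.

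Detection alone did not set the group apart. Of other cells, 99.8% held at least 1 UMI of Cxcl1, 68.8% of Il6, 98.9% of Ccl2 and 99.5% of Ccl7, beside 100%, 99.5%, 100% and 100% of chemokine-high cells. Free RNA in the droplets can contribute to such shares. In 23 barcodes with at least 10% haemoglobin UMIs, all in library 1 and at a median of 12114 UMIs, 95.7% held Cxcl1 at 706 CPM, 34.8% Il6 at 55.1 CPM, 91.3% Ccl2 at 444 CPM and 95.7% Ccl7 at 671 CPM. Red cells do not make these chemokines, but whether these barcodes also held another cell was not checked. Their values may thus hold more than free RNA, and they cover library 1 only. The text therefore goes by levels, not by shares of cells. With each cell thinned to 6900 UMIs, which left out 25 chemokine-high and 497 other cells as too shallow, Il6 averaged 10.1 UMIs in chemokine-high cells and 1.93 in other cells. At that depth 97.8% of chemokine-high cells and 57.1% of other cells held Il6.

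The chemokine-high cells carried the transcripts of sorted precursors at about the level of the other cells. Pdgfra, a growth factor receptor widely used as a precursor marker, was at 149 against 131 CPM, Ly6a (Sca-1) at 2968 against 2929 CPM, and Thy1 at 528 against 503 CPM. Cd34 was lower, at 602 CPM in chemokine-high cells and 845 CPM in other cells. Of the 9 precursor genes listed, only Cd24a, known as a marker that precursors lose as they commit, passed the fold used below, at 13.3 against 23.3 CPM. Most markers of other cell types were low and over both libraries none of their lists summed higher in chemokine-high cells. Summed over 15 macrophage and monocyte markers the level was 43.0 CPM in chemokine-high cells and 62.2 CPM in other cells, of which C1qa and C1qb were at 0 by selection. The pan-leukocyte gene Ptprc had 1 UMI in all chemokine-high cells together, and Lyz2 had 8. The 10 neutrophil and mast cell markers summed to 3.54 against 7.45 CPM, with 5 of them at 0 in chemokine-high cells, and the 9 lymphocyte markers to 1.33 against 2.73 CPM. The 11 endothelial markers summed to 90.4 against 120 CPM, most of it Tek, and the 9 mesothelial markers to 10.2 against 11.8 CPM. The 10 mural cell markers summed to 108 against 110 CPM, with Kcnj8 and Abcc9 measured and neither called. The 6 Schwann cell markers summed to 37.7 against 63.4 CPM, with 29.1 against 26.1 CPM in library 1 and 44.9 against 95.1 CPM in library 2, and 1 of 2 measured was lower. Haemoglobin and other erythroid transcripts stood apart by library: 842 CPM in chemokine-high and 3822 CPM in other cells of library 1, against 20.4 and 20.7 CPM in library 2. Apart from Cd34 and Cd24a, the precursor transcripts named here thus differed little, and the part of the other markers in the results was not tested. Ccl2 and Ccl7 are not particular to precursors here: 35 left-out barcodes with 3 or more UMIs of C1qa and C1qb had 5625 CPM of Ccl2 and 4488 CPM of Ccl7, but 142 CPM of Il6.

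Beyond the 4 genes, 4694 genes reached 20 CPM in at least 1 of the 2 groups. A gene was counted as higher or lower where its CPM differed by 1.5-fold or more in the same direction in both libraries. By this measure 141 genes (3.00% of those tested) were higher in chemokine-high cells and 160 (3.41%) were lower. At a 2-fold difference in both libraries 27 were higher and 35 lower. The median log2 ratio of all tested genes was −0.09, and scaling by median of ratios in place of totals gave 179 higher and 111 lower. The groups were made from genes of the same cells, so these counts are descriptions and were not tested.

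The other chemokines stood out by count. Of 8 with at least 20 CPM, out of 21 listed, 7 were higher in chemokine-high cells and none lower, with a median log2 ratio of 1.09. Of the 7, Cxcl9 (27.0 against 13.2 CPM) and Ccl19 (43.0 against 12.1 CPM) reached 20 CPM only in chemokine-high cells. They entered the count only through being high there. Cxcl2, like Cxcl1 a neutrophil attractant, was at 1084 CPM in chemokine-high and 443 CPM in other cells of library 1, and at 1009 and 433 CPM in library 2, a pooled ratio of 2.39 (95% interval 2.29 to 2.49). It was uneven among the chemokine-high cells themselves: thinned to 6900 UMIs, they held a median of 2 UMIs, and 31.5% held 5 or more, against 16.8% of other cells. Ccl8, a monocyte attractant encoded beside Ccl2 and Ccl7, was at 139 against 40.3 CPM, a ratio of 3.45 (4.03 in library 1 and 3.11 in library 2). Cxcl10 and Cxcl9, ligands of the T-cell receptor Cxcr3, gave ratios of 2.20 and 2.05. Ccl11, which draws eosinophils, was at 436 against 225 CPM, and Cxcl12, the ligand of Cxcr4 that stromal cells make constitutively, had the smallest ratio of those called, 1.60. Ccl19 had a ratio of 3.56 at only 43.0 against 12.1 CPM, and its reads may be shared with near-identical copies. Cxcl16, at 34.6 against 22.1 CPM, missed the fold in library 1. Among 19 other cytokines and growth factors, only 2 were measured, and Csf1, which sustains macrophages, was called at 196 against 114 CPM. Tnf had 1 UMI and Il1b 7 UMIs in all chemokine-high cells together.

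Of 17 measured genes listed as NF-kB effector targets, 11 were higher and none lower, with a median log2 ratio of 0.82. Tnfaip6 encodes TSG-6, a secreted protein that binds hyaluronan, and Ptx3 encodes pentraxin 3, a soluble pattern recognition protein. Tnfaip6 was at 6161 CPM in chemokine-high cells and 3139 CPM in other cells, and Ptx3 at 3669 against 1703 CPM. Both exceeded the mean of other cells in each library, with ratios of 2.03 and 1.91 for Tnfaip6 and 2.11 and 2.19 for Ptx3. Tnfaip2 had a ratio of 2.38, the metalloreductase gene Steap4 2.50, the matrix protease gene Mmp3 2.27, and Gch1, which starts tetrahydrobiopterin synthesis, 2.08. Sod2, the mitochondrial superoxide dismutase, was at 255 against 131 CPM. The adhesion molecules Icam1 and Vcam1 had ratios of 1.90 and 1.60, and the urokinase receptor gene Plaur 1.76. Not all targets in the list followed: Irf1 was at 199 against 245 CPM, Has1 at 469 against 440 CPM, and C3 at 21.7 against 24.1 CPM.

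Subunits of NF-kB and its inhibitors differed less. Of 14 measured, 3 were higher and none lower, with a median log2 ratio of 0.53. Tnfaip3, which encodes the deubiquitinase A20, was at 145 against 79.9 CPM, Zc3h12a, whose product degrades Il6 mRNA, at 92.6 against 44.8 CPM, and Nfkb2 at 35.9 against 23.6 CPM. Nfkbia, the inhibitor that NF-kB induces first, was abundant in both groups, at 1536 CPM in chemokine-high cells and 1333 CPM in other cells, and was not called. Nfkb1 and Rela had ratios of 1.44 and 1.41. Nfkbiz, a nuclear cofactor for Il6 transcription, was not higher, at 160 against 185 CPM. Of 7 measured genes for proteins that bind or degrade AU-rich mRNAs none was called; Zfp36, whose product destabilizes cytokine transcripts, was at 1564 against 1220 CPM.

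Of 16 measured receptors and signalling genes, 3 were higher. Il1r1, the interleukin 1 receptor, was at 91.1 CPM in chemokine-high and 35.0 CPM in other cells of library 1, and at 88.1 and 40.5 CPM in library 2, a pooled ratio of 2.36 (2.03 to 2.73). Il17ra gave 104 against 61.8 CPM and Osmr, the oncostatin M receptor, 69.6 against 34.5 CPM. Tnfrsf1a, a tumour necrosis factor receptor, and the adaptor Myd88 had ratios of 1.21 and 1.37 and were not called. Downstream of interleukin 6, the feedback gene Socs3 was at 654 CPM in chemokine-high cells and 642 CPM in other cells. Of 10 measured genes of the interleukin 6 and STAT3 list, Cebpb, Fgl2 and Timp1 were higher, with ratios of 1.75, 1.79 and 1.95.

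Outside these lists, Ifi205, an interferon-inducible gene of the Ifi200 family, was at 763 against 288 CPM, and Iigp1, Slfn5 and Gbp7, also interferon-inducible, had ratios of 3.19, 2.34 and 2.25. Iigp1 turned lower, at a log2 ratio of −0.49, when the ratios within 3 bins by position along the precursor range were averaged with equal weight. In the bin that held most chemokine-high cells its ratio was 1.97. Of 5 measured interferon genes, Gbp2 and Iigp1 were called, whereas Isg15 had a ratio of 1.08 in library 1 and 4.13 in library 2 and was not. Srxn1, which encodes the antioxidant sulfiredoxin, had a ratio of 2.54, and it was the only one of 11 measured genes of unfolded protein and oxidative stress to be called. Tfpi2, a protease inhibitor gene, and Cp, which encodes the copper carrier ceruloplasmin, had ratios of 2.67 and 2.52. By correlation with the score over the 5213 cells, the genes most like it were Tnfaip6 (Pearson's r 0.51), Ptx3 (0.46), Mt2 (0.43), Tnfaip2 (0.40) and Ifi205 (0.39), followed by Mt1, Ier5, Nfkb1, Tnfaip3 and Nfkbia at 0.36 to 0.30. The metallothionein genes Mt2 and Mt1, whose products bind zinc and copper, were at 9286 against 4926 CPM and 6067 against 3063 CPM. The genes least like the score were Klf2 (−0.30), Jun (−0.28) and Fos (−0.28).

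**Figure D2:**
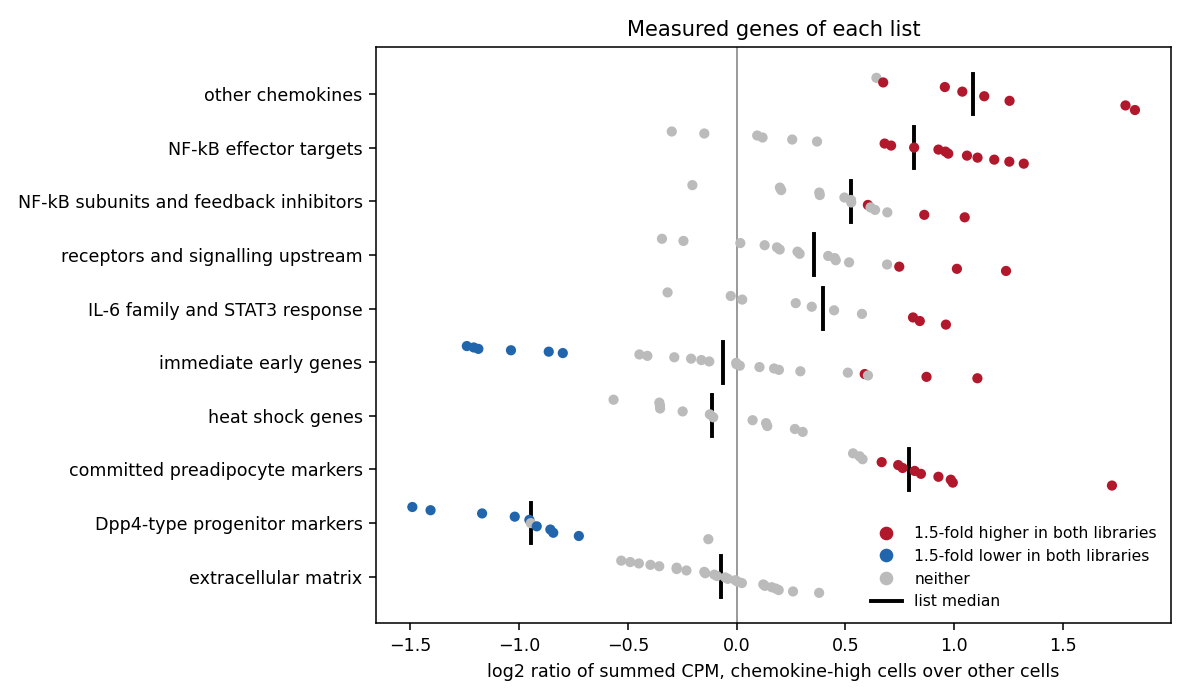
Log2 ratio of summed CPM, chemokine-high over other cells, for each measured gene of 10 lists. Red points were 1.5-fold or more higher and blue points 1.5-fold or more lower in both libraries, grey points neither, and black lines mark list medians. Other chemokines (median 1.09) lie right of 0, Dpp4-type progenitor markers (median −0.95) left of it, and immediate early genes on both sides.

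Fos, Jun and Egr1 were checked as signs of tissue digestion. They were not high in chemokine-high cells. Summed, the 3 genes were at 1591 CPM in chemokine-high cells and 2681 CPM in other cells, a ratio of 0.593 (0.574 to 0.613), with 0.607 in library 1 and 0.581 in library 2. Fos was at 717 against 1452 CPM in library 1 and at 632 against 1314 CPM in library 2. Jun was at 209 against 489 CPM in library 1 and at 218 against 487 CPM in library 2. Egr1 differed less, at 706 against 816 CPM over both libraries, a ratio of 0.865 that was not called. All 3 genes nonetheless stayed well above 20 CPM in the chemokine-high cells too. Every cell here had been through digestion, so what it added to the chemokines cannot be told apart from their level in tissue.

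The immediate early genes did not move as one. Of 24 measured, 6 were lower in chemokine-high cells and 3 higher, with a median log2 ratio of −0.06 that turned to 0.0058 in library 1 alone and to 0.021 with median of ratios scaling. Klf2 was at 391 against 924 CPM and Klf4 at 420.0 against 971 CPM, both Krüppel-like transcription factors, and Atf3 and Rhob had ratios of 0.574 and 0.549. The higher ones were Fosl1, which encodes the Fos family member Fra-1, at 42.1 against 19.5 CPM, Maff at 163 against 89.3 CPM and Ier5 at 961 against 639 CPM. Fosl1 reached 20 CPM only in chemokine-high cells. Junb, at 1163 against 1081 CPM, and the phosphatase gene Dusp1, at 409 against 405 CPM, were close to equal. Of 12 measured heat shock genes none was called in either direction, and Hspa1a was at 77.5 against 115 CPM. Over all tested genes 3.00% were higher and 3.41% lower, so none of 12 says little.

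Cells were also divided into 4 equal bins by the mean log level of Fos, Jun and Egr1. From the lowest bin to the highest, chemokine-high cells made up 5.14%, 4.99%, 4.76% and 1.15% of the bin, or 67, 65, 62 and 15 cells. The highest bin thus held the fewest in each library, 1.28% and 1.03%. The median depth of the bins ran from 11995 to 12554 UMIs. Within the lowest bin Fos was at 289 CPM in chemokine-high cells and 293 CPM in other cells. The bins were cut on Fos, Jun and Egr1, so their levels were partly matched. From the lowest bin to the highest Egr1 had ratios of 1.30, 1.14, 1.12 and 0.860, and Jun 0.718, 0.873, 0.752 and 0.518. In the lowest bin Junb and Dusp1 had ratios of 1.35 and 1.22, and Fosb and Atf3 0.732 and 0.816. The ratios of Cxcl2, which did not choose the cells, were 1.81, 1.84, 2.99 and 2.95 from the lowest bin to the highest. Klf2 remained lower within every bin, with ratios of 0.554, 0.548, 0.495 and 0.288 from the lowest bin to the highest.

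**Figure D3:**
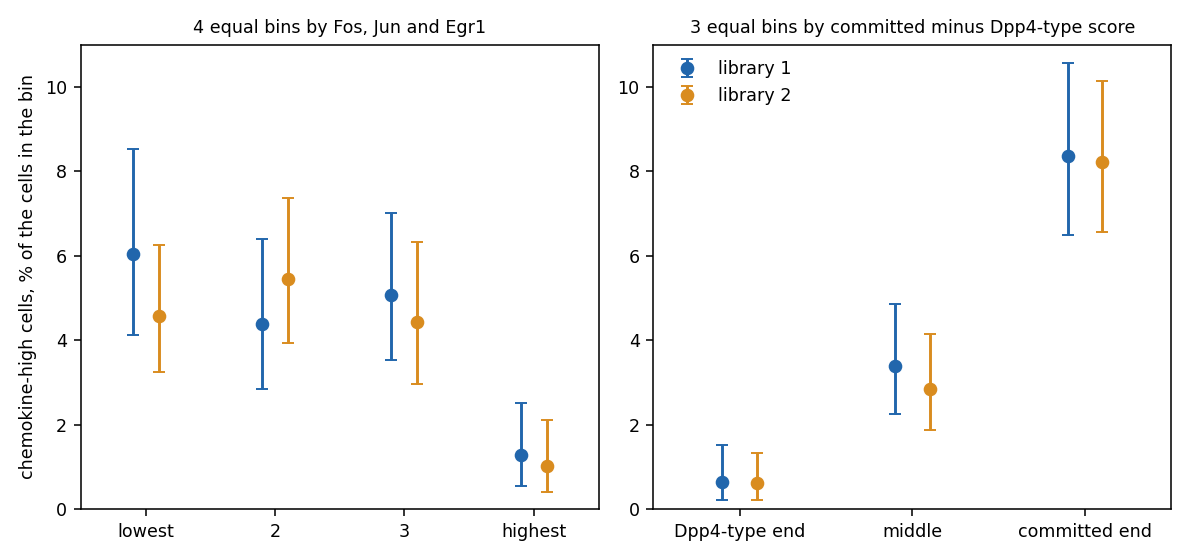
Share of cells in each bin that were chemokine-high, in percent, for library 1 (blue) and library 2 (orange), with exact 95% intervals for counting error. Left, 4 equal bins of all filtered cells by Fos, Jun and Egr1; right, 3 equal bins by the committed minus Dpp4-type marker score. The share was lowest in the bin with the highest Fos, Jun and Egr1 and highest at the committed end.

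The same contrast ran through the whole range of the score. With the filtered cells in 10 equal bins by score, Fos was at 2315 CPM in bin 1, 1369 CPM in bin 5 and 634 CPM in bin 10, and Jun at 810.2, 511 and 231 CPM. Egr1 differed less, with 912 CPM in bin 1, 884 CPM in bin 5 and 698 CPM in bin 10. Over the same bins Tnfaip6 was at 1765, 2972 and 5298 CPM, and Ptx3 at 765, 1674 and 3094 CPM. Nfkbia had most of its difference in the lower part, with 945 CPM in bin 1, 1375 CPM in bin 5 and 1557 CPM in bin 10. Junb and Dusp1 stayed at 886 to 1161 and 382 to 438 CPM across all 10 bins. Pearson's r between the score and the Fos, Jun and Egr1 score over cells was −0.28, with −0.24 in library 1 and −0.32 in library 2.

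**Figure D4:**
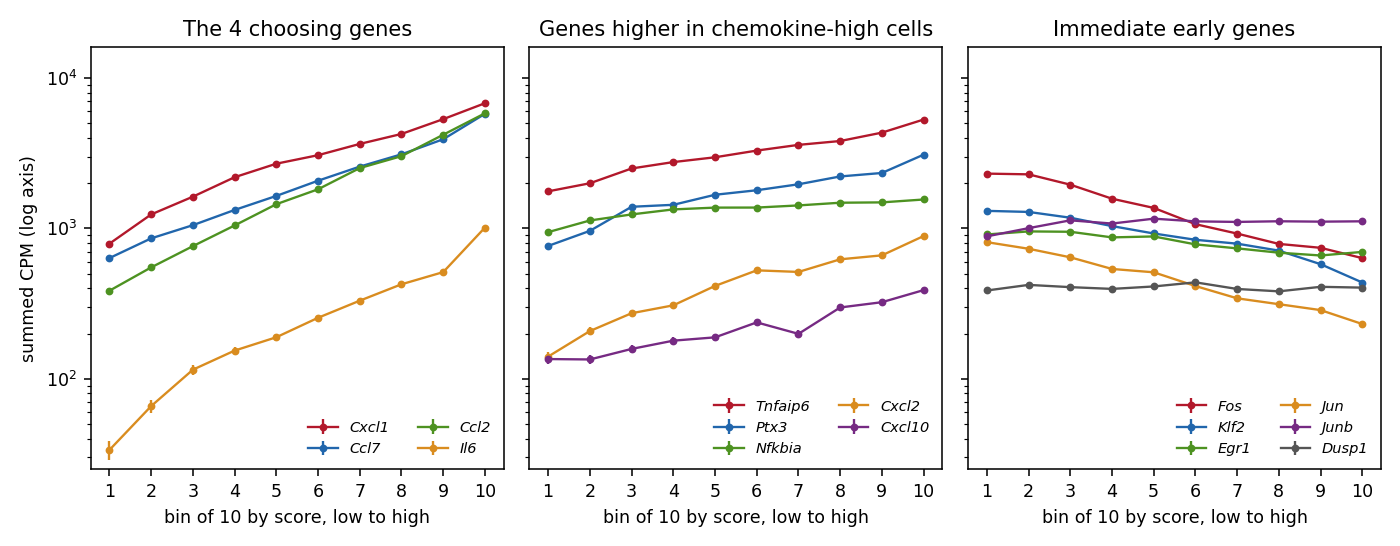
Summed CPM, on a log axis, in 10 equal bins of the filtered cells by the chemokine and Il6 score, low to high, with exact 95% intervals. The left panel shows the 4 genes that made the score, the middle panel genes at a higher level in chemokine-high cells, and the right panel immediate early genes. Nfkbia, in the middle panel, did not reach the 1.5-fold needed to be called. Fos, Jun and Klf2 decline over the bins, whereas Junb and Dusp1 stay level and Tnfaip6 and Ptx3 climb.

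Chemokine-high cells were spread unevenly along the range between Dpp4-type progenitors, the multipotent precursors of the reticular interstitium, and committed preadipocytes, which are nearer to becoming fat cells. Of 12 measured committed markers, 9 were higher in chemokine-high cells and none lower, with a median log2 ratio of 0.79. Examples are the basement membrane collagen gene Col4a1 at 470.1 against 236 CPM and Fabp4, a fatty acid carrier gene, at 502 against 300.3 CPM. Icam1 is on this list and on that of NF-kB targets. Of 11 measured Dpp4-type markers, 9 were lower and none higher, with a median of −0.95. Pi16 was at 823 against 1593 CPM, Dpp4 itself at 97.0 against 174 CPM and Igfbp5 at 252 against 709 CPM. The 24 genes of the extracellular matrix list showed none past the fold in either direction; Col3a1 was at 32617 CPM in chemokine-high cells and 32516 CPM in other cells.

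With the filtered cells in 3 equal bins by committed minus Dpp4-type marker level, with Icam1 left out of the markers, 144 of the 209 chemokine-high cells, or 68.9%, fell in the committed end. They made up 8.29% of that bin, 3.11% of the middle and 0.633% of the Dpp4-type end, where there were 11. The order was the same in both libraries, with 8.37% and 8.22% at the committed end. Median depth was 10950.5 UMIs at the committed end and 13430.5 at the Dpp4-type end. Cxcl2, which did not choose the cells, had a ratio of 2.92 at the Dpp4-type end, 2.22 in the middle and 2.04 at the committed end. For Ccl8 the ratios were 1.02 (0.123 to 3.71), 1.38 (0.899 to 2.02) and 2.32 in the same order.

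Many of the list differences were smaller within the committed end of this range. The 4 choosing genes also had smaller ratios there, at 1.94 for Cxcl1, 3.73 for Il6, 3.42 for Ccl2 and 2.74 for Ccl7. Other cells of that bin held 4370 CPM of Cxcl1. What part of the smaller differences went with position and what part with this weaker contrast was not tested. Within the committed end alone, an alternative added after the data were seen, 46 genes (1.01%) were higher and 84 (1.84%) lower of 4562 tested. There 3 of 8 other chemokines were higher, with a median log2 ratio of 0.67, and 3 of 17 NF-kB effector targets, with a median of 0.41. Cxcl2, Ccl8 and Cxcl10 had ratios of 2.04, 2.32 and 1.75, and Tnfaip2, Ptx3 and Gch1 ratios of 1.79, 1.94 and 1.81. Tnfaip6 was at 6783 against 4511 CPM, with 1.44 in library 2, and was not called. Steap4 at 1.33, Icam1 at 1.26, Mmp3 at 1.36 and Il1r1 at 1.53 were not called either. None of 14 NF-kB subunits and feedback inhibitors, of 10 genes of the interleukin 6 and STAT3 list or of 14 adipogenic and lipid genes was called there in either direction. The adipogenic list shares genes such as Fabp4 with the committed markers that cut the bins, so their levels were matched in advance. None of 4 interferon genes was called either, but their median log2 ratio was 0.71. Iigp1 had a ratio of 1.97 (3.40 in library 1 and 1.47 in library 2). Gbp7, which is not on that list, was called at 2.29. Of 14 receptors and signalling genes only Osmr was called. Of 13 heat shock genes 1 was lower there, with a list median log2 ratio of −0.23, and Hspa1a had a ratio of 0.530. Pi16, Dpp4 and Igfbp5 had ratios of 1.04, 1.01 and 1.09, and position was matched by these markers in cutting the bins. Of the 141 higher and 160 lower genes, 29 and 30 were called in the same direction there. Among the lower ones Jun had a ratio of 0.344, Fos 0.413, Klf4 0.451, Klf2 0.523 and Txnip, which encodes a thioredoxin inhibitor, 0.294.

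**Figure D5:**
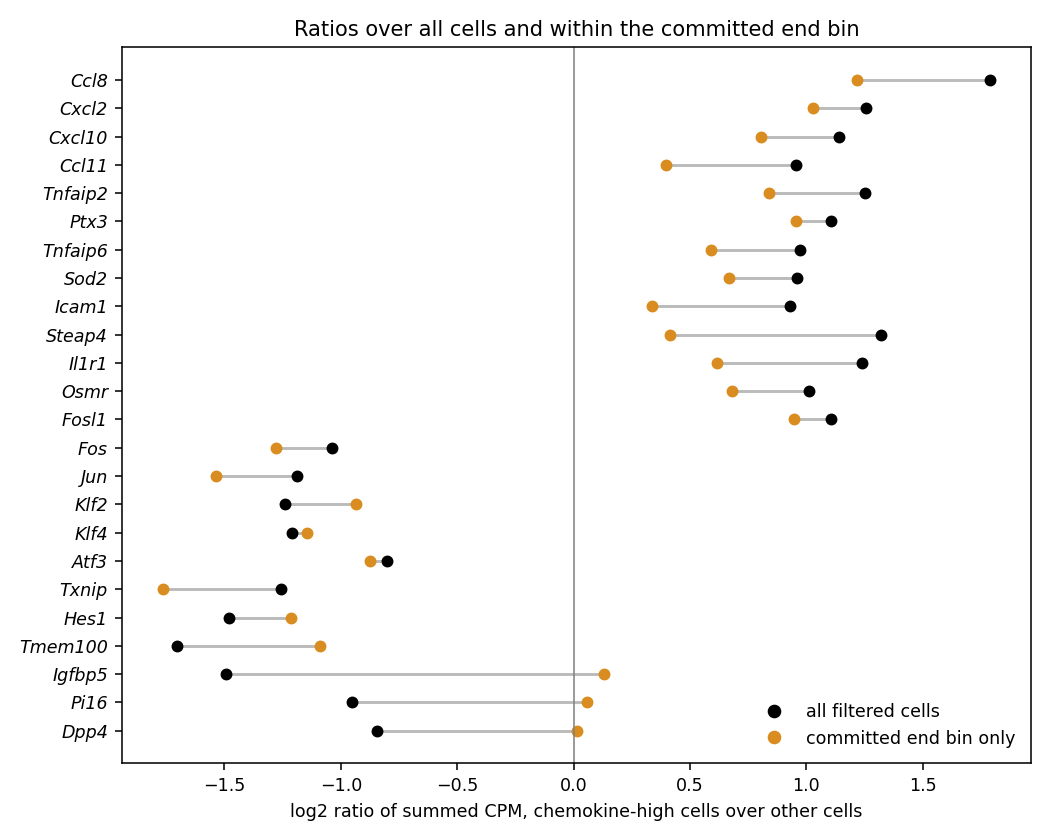
Log2 ratio of summed CPM, chemokine-high over other cells, in all filtered cells (black) and in the committed end bin alone (orange). Ccl8, Cxcl2 and Ptx3 stay well right of 0 and Fos and Jun move further left, whereas Igfbp5, Pi16 and Dpp4 come to lie at about 0.

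The genes with the lowest ratios over all filtered cells included Tmem100, at 48.7 CPM in chemokine-high cells and 159 CPM in other cells, a ratio of 0.307, and Hes1, a repressor induced by Notch, at 31.9 against 89.1 CPM. Both stayed lower within the committed end, at 0.470 and 0.431. Krtdap, Aldh1a3, which makes retinoic acid, and Cthrc1, which encodes a secreted collagen triple helix protein, had ratios of 0.377, 0.412 and 0.427 over all cells. Within the committed end these were 0.892, 0.912 and 0.999. Krtdap is one of the Dpp4-type markers that cut the bins, so its level there was matched by construction. Apart from such markers, the low genes thus included some with ratios near 1 within the committed end and some that stayed low. In prostaglandin metabolism, Ptgs1 and Hpgd, the enzyme that inactivates prostaglandins, were lower at 12.9 against 30.0 CPM and 23.0 against 54.3 CPM, whereas the inducible Ptgs2 was at 109 against 86.8 CPM and not called. Within the committed end Ptgs1 and Hpgd had ratios of 0.960 and 0.766 and were no longer called, whereas Ptgs2, at 59.1 against 30.8 CPM, was. Of 12 measured adipogenic and lipid genes, Fabp4 and the fatty acid uptake gene Cd36 were higher and Scd1, a fatty acid desaturase gene, lower at 23.5 against 39.1 CPM. Within the committed end Fabp4 was at 643 against 642 CPM and the ratios of Cd36 and Scd1 were 1.16 and 0.760, and none was called. Fabp4 is one of the committed markers that cut the bins, so its level there was matched by construction. Fabp4 turned to a log2 ratio of −0.12 when cells with endothelial or macrophage UMIs were kept, and Cd36 to −0.15 as the mean within the 3 bins by position.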

How the data were processed

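The deposited matrix holds UMI counts per gene and cell barcode, whole numbers that the authors had not normalized, from 10x Genomics 3′ version 2 libraries per the labels. Per the submitters' processing notes, Cell Ranger, Seurat 3.0.1 and mm10 were used, with no role given. The matrix had 27998 genes and 85584123 UMIs, 42092816 in library 1 and 43491307 in library 2. Of the barcode sequences, 17 occurred in both libraries, 1 of them among chemokine-high cells. Where a symbol named several rows (56 symbols), the row with most UMIs was used. No doublet caller was run; leaving out the 5% of cells with most UMIs was an alternative.

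UMIs were summed over cells and divided by the group's total (CPM), with exact Poisson, conditional exact and Clopper-Pearson 95% intervals (scipy 1.17.1). Named genes were the 4 choosing genes, Fos, Jun and Egr1, list members that were called or served as contrast, and the 15 largest ratios each way among called genes at 50 CPM or more. The members and the 32 gene lists were chosen with earlier results of these data known. The call of genes was tried on simulated counts with counting error only. Spread between cells and the choice of cells by related genes were not simulated. No row carried the symbol of 3 listed genes, which have no value here. Some results are left out of the text.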

Additional observations from a re-analysis of the deposited data

How the results depend on the processing

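Counts of genes called depended on the setting. Of 1429 values of 79 single genes under the alternatives, 16 changed sign, and 291 others lay outside the counting interval of the main value. Apart from Egr1, these genes had chosen the cells or been called, so few changes of sign were likely from the start. For Egr1, which was not called, changes of sign were not counted. No paired analysis was possible because the labels give 1 sample per condition and no pairing. With 1 library alone, 249 genes were higher and 429 lower in library 1, and 245 and 357 in library 2. At a minimum of 5 CPM 209 were higher and 572 lower, and at 50 CPM 88 were higher and 64 lower. At 2-fold in both libraries the counts were 27 and 35. With the top 8% of the score 121 were higher and 99 lower. Within the 3 bins by position 42 were higher and 234 lower, and within the 4 bins by Fos, Jun and Egr1 113 and 310. In the committed end alone the counts were 46 and 84. The ratio of summed Fos, Jun and Egr1 stayed below 1 throughout, at 0.631 with a score from summed UMIs, 0.629 with median of ratios scaling, 0.498 within the 3 bins, 0.505 in the committed end and, with those genes matched, 0.930 within the 4 bins. The median log2 ratio of immediate early genes turned positive in library 1 alone (0.0058), with median of ratios scaling (0.021) and within the 4 bins (0.060). Fabp4 turned to a log2 ratio of −0.12 without the exclusion by endothelial and macrophage genes. As means within the 3 bins, of which the Dpp4-type end holds 11 chemokine-high cells, log2 ratios that changed sign were −0.49 for Iigp1, −0.15 for Cd36, 0.000261 for Anxa3, 0.13 for Bmp7 and −0.12 for Col4a2. In the committed end they were 0.057 for the median of Dpp4-type markers, −0.028 for that of committed markers, 0.13 for Igfbp5, 0.0387 for Limch1, 0.015 for Dpp4, 0.057 for Pi16, 0.38 for Anxa3, 0.14 for Cd55, 0.019 for Sema3c, −0.32 for Col15a1, −0.15 for Sparcl1 and −0.028 for Ggt5. The 3 bins were cut on these markers, so their levels were matched by construction; the cause of the other moves was not tested.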
